A study of Mus musculus with 4 samples.

Results

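Serum amyloid A and other acute phase genes were followed in RNA-seq of mouse liver. They comprise 10 genes chosen by name, with earlier results of these data known, among the 46603 genes counted. These are Saa1, Saa2, Saa3 and Saa4, the lipocalin gene Lcn2, the orosomucoid genes Orm1 and Orm2, the pentraxin genes Apcs and Crp, and Itih4. All 10 had at least 10 counts in every liver and passed the filter on low counts, which 13001 genes passed in all. The livers came from 4 male HuR flox/flox mice (C57BL/6 J) that were all kept for 4 weeks on WDSW, a Western diet given with sugar water. Control mice 1 and 2 carried AAV8-TBGP-GFP, while mice 3 and 4, labelled HuR hKO, had AAV8-TBGP-Cre injected into the tail vein. AAV8 is a liver-tropic viral vector, and TBGP is the thyroxine-binding globulin promoter, which is active in hepatocytes, so that liver cells of other types are not targeted. Floxed alleles, an AAV8 vector and the WDSW diet are thus shared by the control mice, and the ages of the mice are not given in the labels. The comparison asks how the acute phase genes differ between livers with and without hepatocyte HuR, an RNA-binding protein encoded by Elavl1.

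The acute phase response is the change in plasma protein synthesis that the liver makes on inflammation or injury. Interleukin-6 and interleukin-1 are its classical inducers and act on hepatocytes through STAT3, C/EBP and NF-kB transcription factors. Serum amyloid A proteins 1 and 2 are the main inducible acute phase proteins of the mouse and travel on high density lipoprotein, Saa3 is made by macrophages and adipocytes as well as hepatocytes, and Saa4 is the constitutive member of the family. Lcn2 encodes lipocalin 2, which binds bacterial siderophores and is also a granule protein of neutrophils. Orosomucoids are plasma glycoproteins that bind small molecules. Apcs, or serum amyloid P, and Crp are pentraxins, and Crp responds much less in mice than in humans. Itih4 encodes a heavy chain of the inter-alpha-trypsin inhibitor family.

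The targeted gene went against the labels. Elavl1 stood at 28.4 and 25.9 CPM (counts per 1000000 counts of a library, on library sizes scaled by edgeR's TMM factors) in control mice 1 and 2 and at 37.7 and 34.4 CPM in mice 3 and 4. The gene that Cre should delete thus had more reads in mice 3 and 4, at a log2 fold change of 0.41 (SE, the standard error, 0.135; adjusted p = 0.545 by edgeR's quasi-likelihood method, as are all p-values below named edgeR-adjusted). Every direction below is that of the libraries labelled HuR hKO against control and carries this limit. The counts are of the whole gene and do not show whether its reads fall inside the floxed part. The libraries held between 13032095 and 19715577 counts on genes, and mouse 4 was the deepest. The tissue matched its label, since the 10 hepatocyte markers summed to between 61550 and 68237 CPM in every liver. With 2 mice in each group, an exact permutation test cannot give a two-sided p below 0.333, and the fitted p-values borrow their estimate of variation from genes of similar abundance.

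The 4 serum amyloid A genes lie together on chromosome 7 of GRCm38, within 42316 bases (chr7:46711998-46754313). Saa3 (chr7:46711998-46715700), Saa4 (chr7:46727998-46732603) and Saa1 (chr7:46740497-46742980) are on the minus strand. Saa2 (chr7:46751790-46754313) is on the plus strand and points away from Saa1, from which 8809 bases separate it. The coding sequences of Saa1 and Saa2, without the stop codon, have 366 bases each and are 95.1% identical, with 18 substitutions and no gap. Saa3 is more distant, at 76.9% identity with Saa1, and Saa4 shares 67.0% with Saa1. The stretch of 60 bases with the most differences between Saa1 and Saa2 is shown because it is a part of these near copies by which reads can be told apart. It covers coding bases 90 to 149, counted from the A of the start codon, as read from the GENCODE M21 transcripts, and capitals mark the 7 bases that differ.
Saa1: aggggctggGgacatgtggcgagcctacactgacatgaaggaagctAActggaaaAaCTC
Saa2: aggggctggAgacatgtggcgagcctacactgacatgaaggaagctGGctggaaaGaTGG

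Reads of Saa1 and Saa2 can be confused only in part. Of the 50-base words of the Saa1 transcript, 14.8% also occur in a transcript of another gene (Saa2 or Saa3), and of those of Saa2, 13.3% occur in Saa1. No word of 100 bases was shared by Saa1, Saa2 or Saa3 with any other gene. Orm1 and Orm2 are also near copies, with 89.9% identity of their 621 coding bases, and 20.4% and 22.7% of their 50-base words occur elsewhere. For words of 100 bases that share is 6.95% in each of them. Lcn2, Apcs and Itih4 share no 50-base word with another gene. How reads matching several genes were counted is not given in the sources used here, so that counts of Saa1, Saa2, Orm1 and Orm2 are uncertain to this extent, and summed counts are given beside them.

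The stretch upstream of each start site is shown for the serum amyloid A genes and Lcn2, since they lie side by side on the genome or share their direction in these livers while Saa4 does not. Sequences are RefSeq's promoters on GRCm38.p6, 160 bases from 220 to 61 bases before the first transcribed base, 5′ to 3′ on the strand of the gene. Capitals mark matches of a C/EBP pattern on either strand, written as TTNNGNAAT, TTNNGNAAG, TGNNGNAAT or TGNNGNAAG. The intervals are chr7:46743041-46743200 for Saa1 (minus strand), chr7:46751613-46751772 for Saa2 (plus), chr7:46715737-46715896 for Saa3 (minus), chr7:46732664-46732823 for Saa4 (minus) and chr2:32387800-32387959 for Lcn2 (minus).
Saa1: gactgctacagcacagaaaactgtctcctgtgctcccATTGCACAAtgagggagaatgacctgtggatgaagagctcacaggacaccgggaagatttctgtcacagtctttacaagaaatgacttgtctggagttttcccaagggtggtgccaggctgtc
Saa2: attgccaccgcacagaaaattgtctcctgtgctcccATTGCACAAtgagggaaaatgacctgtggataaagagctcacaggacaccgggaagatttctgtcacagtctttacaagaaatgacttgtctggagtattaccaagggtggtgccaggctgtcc
Saa3: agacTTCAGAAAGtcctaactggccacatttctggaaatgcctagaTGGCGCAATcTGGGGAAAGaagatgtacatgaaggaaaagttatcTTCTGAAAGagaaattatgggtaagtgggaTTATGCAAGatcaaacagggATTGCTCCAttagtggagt
Saa4: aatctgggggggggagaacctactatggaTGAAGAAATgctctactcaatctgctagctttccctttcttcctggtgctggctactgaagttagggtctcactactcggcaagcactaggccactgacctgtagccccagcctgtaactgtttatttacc
Lcn2: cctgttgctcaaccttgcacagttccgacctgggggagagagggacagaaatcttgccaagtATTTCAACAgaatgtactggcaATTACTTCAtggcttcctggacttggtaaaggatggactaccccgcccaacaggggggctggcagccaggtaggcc

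The near identity of Saa1 and Saa2 extended upstream, with 95.3% over the 300-base promoters (250 bases before to 50 after the start). Against Saa3 the Saa1 promoter was 54.1% identical and against Saa4 50.9%. Saa1 and Saa2 held the same single C/EBP match, ATTGCACAA, at 183 and 184 bases before the start, Saa3 held 6 matches, Saa4 held 3, of which 1 is in the stretch shown, and Lcn2 held 2. Over all 32851 promoters of the table, 45.4% held at least 1 such match, so that a match alone sets no gene apart. Patterns searched on both strands for a STAT palindrome (TTCNNNGAA, in 8.30% of promoters), for an interleukin-6 response element (CTGGGAA, 11.1%) and for the NF-kB consensus (8.46%) had no match in the promoters of Saa1, Saa2, Saa3, Saa4 or Lcn2. Apcs held 1 STAT match and 2 of the interleukin-6 pattern, and Itih4 held 1 STAT match, which ends directly before its C/EBP match. A match is a description of letters and not a binding site, and promoters were found for 9 of the 10 genes.

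Of the 10 genes, Lcn2, Saa3, Saa1 and Saa2 passed the rule the study used for changed genes, a fold change of at least 1.8 with an unadjusted p under 0.05, and all 4 were higher in the libraries labelled HuR hKO. By the same rule 1.21% of all 13001 genes tested were higher and 0.915% were lower, and none of the 10 genes was lower. No member had an adjusted p under 0.05 in the edgeR test, a level that 0.0231% of all genes reached, while 5 of the 10 were higher at an unadjusted p under 0.05, against 4.04% of all genes, and 0 were lower, against 3.39%. DESeq2's Wald test put 3 of them, Saa1, Saa2 and Lcn2, under an adjusted p of 0.05, and limma-voom put 0. In 6 of the 10 genes mice 3 and 4 both exceeded mice 1 and 2, against 19.3% of all genes, and in 0 they were both below, against 18.8%. The 10 genes were chosen with earlier results of these data known. Their counts beside the shares of all genes are thus a description and not a test of an excess. In whole liver, a change in the share of a cell type and a change in RNA per cell cannot be told apart. The plot of levels by mouse shows all 10 genes.

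**Figure D1:**
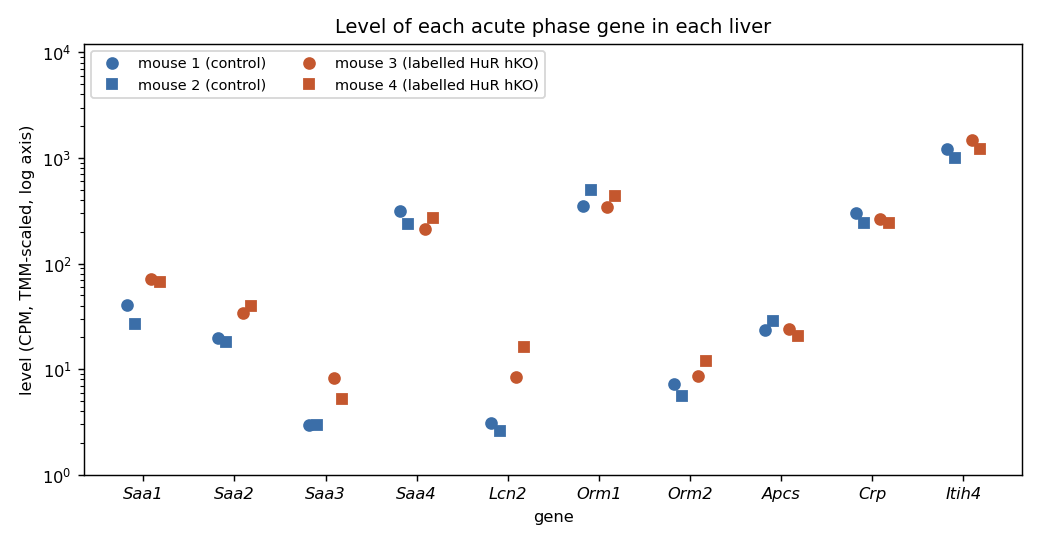
Level of each of the 10 acute phase genes in each liver, in CPM on TMM-scaled library sizes (log axis). Blue marks control mice 1 and 2 and orange mice 3 and 4, labelled HuR hKO. For Saa1, Saa2, Saa3, Lcn2, Orm2 and Itih4 both orange marks lie above both blue ones, by a narrow margin for Itih4, while for Saa4, Orm1, Apcs and Crp they overlap.

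Saa1 and Saa2, the inducible plasma forms, were about doubled. Saa1 stood at 40.1 and 27.0 CPM in the controls (533 and 362 counts) and at 71.6 and 67.2 CPM in the libraries labelled HuR hKO (1026 and 1265 counts). The lowest library labelled HuR hKO was 1.67 times the highest control, and the controls themselves differed by 1.48 times. The log2 fold change was 1.05 (SE 0.188, 95% interval 0.61 to 1.48, edgeR-adjusted p = 0.139). Without control mouse 2, which had the lower Saa1, it was 0.79 and no longer passed the rule.

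Saa2 varied less within the groups. It had 19.8 and 17.9 CPM in the controls (263 and 240 counts) and 34.4 and 39.7 CPM in mice 3 and 4 (493 and 747 counts), so that the groups stood 1.74 times apart at their nearest. Its log2 fold change was 0.97 (SE 0.143, 95% interval 0.64 to 1.30, edgeR-adjusted p = 0.0920), and its unadjusted p ranked 17th of all genes. Whichever mouse was left out, Saa2 passed the rule, with values between 0.87 and 1.06.

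Since reads may have been split between these near copies, their counts were also added. The sum was 59.9 and 44.9 CPM in the controls and 106.0 and 106.8 CPM in mice 3 and 4, which gives 1.02 as log2 fold change (SE 0.160, edgeR-adjusted p = 0.103). The split between the pair was compared as well. Saa2 took 33.0% and 39.9% of the summed counts in the controls and 32.5% and 37.1% in mice 3 and 4, a difference of -1.66 percentage points (exact two-sided permutation test, p = 0.667). That difference ran from -5.08 points without control mouse 1 to 1.75 points without control mouse 2, and it was above 0 without mouse 3 as well, so that its sign rested on single mice. Without control mouse 2 the summed fold change was 0.83 on the log2 scale and missed the rule.

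Saa3, the member that macrophages and adipocytes also make, was low in all livers. It had 39 and 40 counts in the controls and 118 and 99 in the others. These are 2.94 and 2.99 CPM against 8.23 and 5.26 CPM, so the controls were nearly equal and mouse 3 exceeded mouse 4 by 1.57 times. The log2 fold change was 1.18 (SE 0.293, 95% interval 0.50 to 1.85, edgeR-adjusted p = 0.367). Without mouse 3 it was 0.81 and missed the rule.

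Saa4, the constitutive form, was not higher in mice 3 and 4. Its level was 314 and 239 CPM in the controls and 210 and 268 CPM in mice 3 and 4, with overlapping groups. The log2 fold change was -0.21 (SE 0.182, 95% interval -0.63 to 0.21, edgeR-adjusted p = 0.838), and it was 0.13 where counts were not scaled for library size. That setting moved the median of all genes to 0.31, so Saa4 lay below the median gene there too.

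The makeup of the serum amyloid A counts differed between the groups without overlap, in a measure that no scaling of the libraries can alter. Saa1, Saa2 and Saa3 together made 16.67% of all Saa counts in control mouse 1 (95% Wilson interval 15.7% to 17.7%) and 16.69% in control mouse 2 (15.5% to 17.9%). They made 35.2% in mouse 3 (33.8% to 36.6%) and 29.5% in mouse 4 (28.5% to 30.6%). Intervals cover counting error only. The difference of the means was 15.7 percentage points, with groups that did not overlap (exact two-sided permutation test, p = 0.333, the smallest possible). Saa4 held the rest, 83.3% of the family's counts in each control, 64.8% in mouse 3 and 70.5% in mouse 4.

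**Figure D2:**
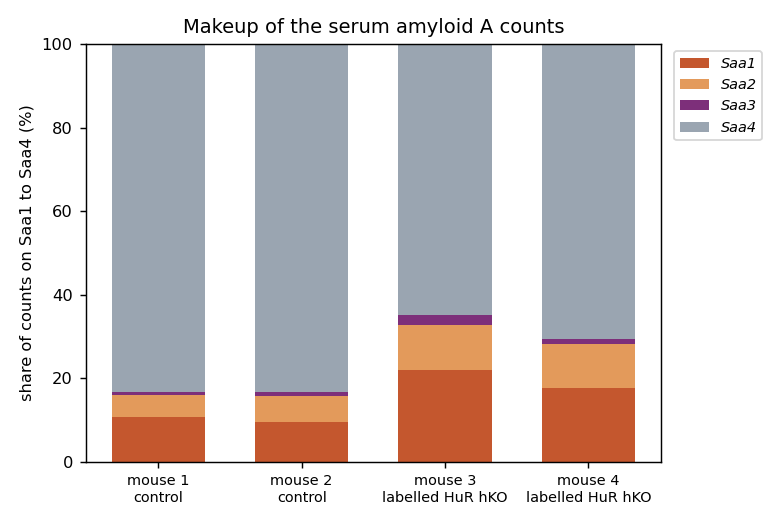
Share of each gene in the counts on Saa1, Saa2, Saa3 and Saa4, in percent, for each liver. Saa4 (grey) takes 83.3% in both controls, 64.8% in mouse 3 and 70.5% in mouse 4, and Saa1, Saa2 and Saa3 (coloured) take the rest.

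Other genes around the cluster did not pass the rule. Within 100000 bases on either side, 5 genes besides the 4 Saa genes were tested, which are named for their position. Saal1, next to Saa3, had 4.42 CPM on average in the controls and 6.45 CPM in mice 3 and 4, giving 0.55 as log2 fold change (edgeR-adjusted p = 0.653). Sergef had -0.32, Hps5 -0.081, Gtf2h1 0.060 and the lactate dehydrogenase gene Ldha 0.094 on the same scale. The fold changes of Saa1, Saa2 and Saa3 were larger than that of every tested gene around them.

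Lcn2, on the minus strand of chromosome 2 (chr2:32384633-32388252), had the largest difference of the 10 genes. It had 41 and 35 counts in the controls and 121 and 307 in mice 3 and 4. On the CPM scale these were 3.09 and 2.61 against 8.44 and 16.3, so the groups stood 2.74 times apart at their nearest, while mouse 4 was 1.93 times mouse 3. The log2 fold change was 2.13, a fold of 4.36 (SE 0.339 and 95% interval 1.35 to 2.90 on the log2 scale, edgeR-adjusted p = 0.103). It lay between 1.56, without mouse 4, and 2.50, without mouse 3, and passed the rule in both.

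Because lipocalin 2 is stored in neutrophil granules, neutrophil markers were set beside it. The 13 markers summed to 2.56 and 3.96 CPM in the controls and to 2.93 and 1.96 CPM in mice 3 and 4. Lcn2 alone was above the sum of all 13 in mice 1, 3 and 4, and below it in mouse 2. Camp and Ly6g had 0 counts in every liver, which allows up to 0.226 CPM in the shallowest, and 9 of the 13 had fewer than 10 counts in each liver. The summed neutrophil markers of mouse 3 lay between those of the controls and those of mouse 4, which had the most Lcn2, below both. These sums rest on only 34 and 53 counts in the controls and 42 and 37 in mice 3 and 4. Single markers, named here after their values were seen, went either way. Csf3r, the most abundant, had 1.51 and 1.64 CPM in the controls against 0.837 and 1.06 CPM. S100a8 had 1 and 1 counts against 3 and 5. The part of neutrophils in the level of Lcn2 was not tested.

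Markers of other cells were compared in the same way, since Saa3 and Lcn2 are not confined to hepatocytes. The 10 macrophage markers summed to 197 and 205 CPM in the controls and to 234 and 218 CPM in the others, none passed the rule, and none was at 0. Endothelial and stellate markers, also 10, summed to 303 and 285 CPM against 335 and 369 CPM. Again 0 passed the rule and none was at 0. By the rule 1.21% of all genes were higher and 0.915% lower, so 0 of 10 says little. Fitted levels were higher in 7 of 10 macrophage and 9 of 10 endothelial and stellate markers, against 6544 of all 13001 genes. At an unadjusted p under 0.05 in the edgeR test, 0 and 2 of them were higher, against 4.04% of all genes. The 7 cholangiocyte markers gave 63.6 and 28.0 CPM against 40.8 and 51.1 CPM, with Cftr at 0 in mice 2, 3 and 4. Spp1 was the most abundant of them. Krt19 and Muc1, named after their values were seen, had 12.2 and 10.8 CPM in control mouse 1. In the other livers they had at most 1.81 and 1.33 CPM. Spp1 and Sox9 were not highest in control mouse 1. Of adipocyte markers, 5 in all, the sum was 69.7 and 129 CPM against 64.7 and 106 CPM, nearly all of it Cfd. Single adipocyte markers are named here after their values were seen. Adipoq, the adiponectin gene, had 3 and 1 counts in the controls, 0 in mouse 3 and 14 in mouse 4. Lep, Retn and Plin1, the other markers of the list apart from Cfd, likewise had at most 3 counts in mice 1, 2 and 3 and had 6, 10 and 9 in mouse 4, the liver with the most Lcn2. The part of adipocytes in these levels was not tested. The macrophage and the endothelial and stellate sums were higher in both libraries labelled HuR hKO, by less than 1.8-fold, and their part in the levels of Saa3 and Lcn2 was not tested.

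The orosomucoid genes diverged. Orm1 (chr4:63344560-63348163) was among the most abundant, at 354 and 494 CPM in the controls and 342 and 433 CPM in mice 3 and 4. Its groups overlapped, with a log2 fold change of -0.13 (SE 0.197, edgeR-adjusted p = 0.910) that turned to 0.13 without control mouse 2, to 0.013 without mouse 3 and to 0.21 without scaling for library size. Orm2 (chr4:63362449-63365878) was far lower, at 7.22 and 5.52 CPM (96 and 74 counts) against 8.58 and 11.8 CPM (123 and 223 counts). Mice 3 and 4 both exceeded the controls, by 1.19 times at the nearest. The log2 fold change of Orm2 was 0.69 (SE 0.237, 95% interval 0.14 to 1.23, edgeR-adjusted p = 0.574), below the fold the rule asks for. It passed the rule without control mouse 1 (0.88), without mouse 3 (0.88) and without scaling (1.02).

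The share of Orm2 in the counts on Orm1, Orm2 and Orm3 was small. It was 1.99% (95% Wilson interval 1.63% to 2.42%) and 1.09% (0.871% to 1.37%) in the controls, and 2.44% (2.05% to 2.91%) and 2.63% (2.31% to 2.99%) in mice 3 and 4. The groups did not overlap, though the controls differed from each other more than mouse 1 did from mouse 3 (exact two-sided permutation test, p = 0.333, the smallest possible). Orm2 was lowest in control mouse 2, where Orm1 was highest, and the part of reads shared between the genes was not tested. Added together, Orm1 and Orm2 had a log2 fold change of -0.11 (edgeR-adjusted p = 0.924).

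The pentraxins, which share 62.0% of their aligned coding sequence and lie near each other on chromosome 1, were within the spread of the mice. Crp (chr1:172698055-172833031) had 303 and 241 CPM in the controls and 265 and 241 CPM in the others. Apcs (chr1:172893961-172895041) had 23.3 and 28.6 CPM in the controls and 24.0 and 20.8 CPM in mice 3 and 4. Groups overlapped for both genes. Log2 fold changes were -0.11 for Crp (SE 0.155, edgeR-adjusted p = 0.909), which turned to 0.056 without control mouse 1 and to 0.20 without scaling, and -0.21 for Apcs (SE 0.159, edgeR-adjusted p = 0.812), which turned to 0.087 without scaling. The 95% intervals, -0.46 to 0.25 and -0.58 to 0.15, lie below a doubling of either gene. An annotated processed pseudogene, Gm38051, lies within Crp on the same strand.

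Itih4 (chr14:30886476-30902353) was the most abundant of the 10 by counts. It had 1203 and 1008 CPM in the controls and 1466 and 1217 CPM in mice 3 and 4, so that the groups were apart but mouse 4 barely exceeded mouse 1. The log2 fold change was 0.28 (SE 0.174, 95% interval -0.12 to 0.68, edgeR-adjusted p = 0.763).

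Levels between genes were compared per kilobase of transcript, since the transcripts run from 555 bases (Saa3) to 2980 bases (Itih4). Counts of the whole gene were divided by the length of 1 protein-coding transcript, which has 2094 bases for Saa4 and 609 for Saa1. The order depends on this choice of transcript, which was not varied. Orm1 came first, at 441 to 637 CPM per kilobase over the 4 livers, and Itih4 followed at 338 to 492. Next came Crp (142 to 179), Saa4 (101 to 150), Saa1 (44.4 to 118), Saa2 (29.6 to 65.4) and Apcs (21.4 to 29.4). Orm2 (7.13 to 15.3), Saa3 (5.29 to 14.8) and Lcn2 (2.86 to 17.8) were the lowest. Neighbours in this order overlapped over the 4 livers, except that Itih4 lay above Crp, Saa2 above Apcs and Apcs above Orm2 in all of them. In the controls Saa1 stayed below Saa4, at 44.4 to 65.9 against 114 to 150, whereas in mice 3 and 4 it reached 110 to 118 against 101 to 128. Of the 5 with the highest levels per kilobase only Saa1 passed the rule, and of the 5 with the lowest Saa2, Saa3 and Lcn2 did.

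**Figure D3:**
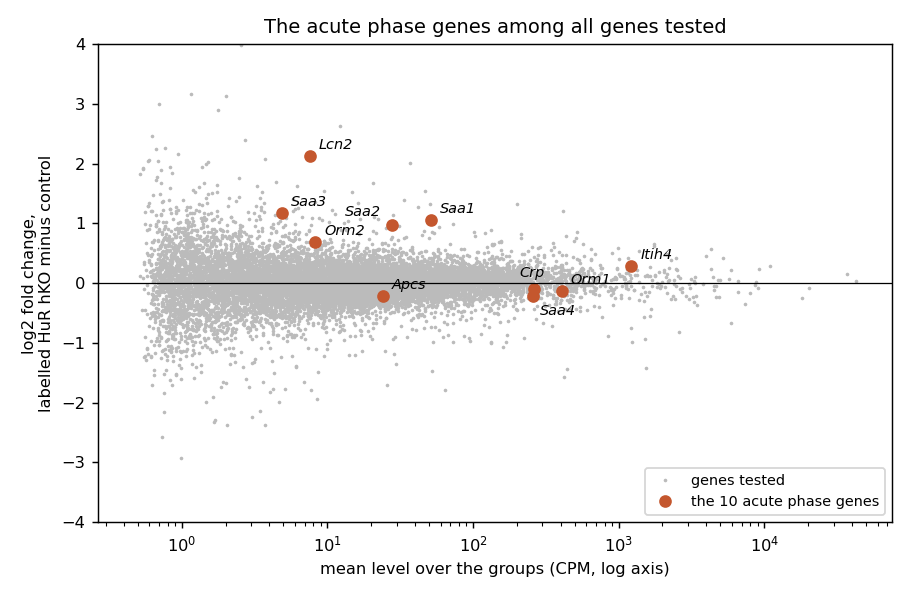
Log2 fold change of the libraries labelled HuR hKO against control (vertical axis) over the mean level of the groups in CPM (horizontal log axis), for all 13001 genes tested (grey) and the 10 acute phase genes (orange). Lcn2, Saa3, Saa1 and Saa2 sit at 2.13, 1.18, 1.05 and 0.97, at the upper edge of genes of like abundance, and 9 of the grey genes fall outside the axis limits of 4.

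Genes with the profile most like that of Saa1 or Lcn2 over the 4 livers were named by the distance between centred log2 CPM profiles. Nearest to Saa1 were Gm10447, Spon2, Grm8, 1810014B01Rik and Bend4, at distances of 0.177 to 0.277. Saa2 itself was at 0.381 and Saa3 at 0.569. Spon2, which encodes the secreted matrix protein spondin 2, had 3.91 and 2.91 CPM in the controls and 7.05 and 6.05 CPM in mice 3 and 4, and the others had at most 30 counts in a liver. Nearest to Lcn2 were Enho, Cyp2b13, 2310005A03Rik, Cyp2b9 and Ugt1a9, at 0.522 to 0.753, with Saa1 at 1.20.

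All 5 neighbours of Lcn2 passed the rule and were higher in the libraries labelled HuR hKO. Their direction and their large fold changes follow from the way they were picked, so passing the rule is no separate result. Enho, the gene of the secreted peptide adropin, had 1.96 and 2.24 CPM in the controls and 4.81 and 8.71 CPM in mice 3 and 4. Cyp2b9 and Cyp2b13 are cytochrome P450 genes of xenobiotic and steroid metabolism. Cyp2b9 went from 6.47 and 8.88 CPM to 16.7 and 27.2 CPM, and Cyp2b13, a close relative whose reads may be shared with it, from 0.677 and 1.05 CPM to 3.91 and 5.20 CPM. Ugt1a9, a glucuronosyltransferase gene, had 22.6 and 14.6 CPM against 41.9 and 55.7 CPM. In each of these, as in Lcn2, mouse 4 was the highest. With 4 livers such likeness is a description only.

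The other positive acute phase genes, that is, genes listed as rising in the response, did not follow Saa1, Saa2, Saa3 and Lcn2 as a group. Whether each of them rises in mice was not tested. Serpina1a, Serpina1b, Serpina1c, Serpina1d and Serpina1e count separately in this list, at log2 fold changes of -0.24, -0.24, -0.36, -0.15 and -0.75. They are named here after their values were seen. Of 30 such genes, all tested, 2 were higher by the rule and 1 was lower, against 1.21% and 0.915% of all genes. In 20 of the 30 the fitted level was lower, against 6457 of all 13001 genes. Mice 3 and 4 both exceeded the controls in 4 of the 30 and were both below them in 10. Over all genes these shares were 19.3% and 18.8%. Their median log2 fold change was -0.13, against 0.0020 over all genes tested and 0.48 for the 10 genes. Without scaling the median of the 30 was 0.19, still below that of all genes at 0.31. No gene of the 30 reached an adjusted p under 0.05 in the edgeR test, while 5 were higher and 1 lower at an unadjusted p under 0.05, against 4.04% and 3.39% of all genes. The 5 were Itih3, Il1rn, Hamp2, Hp and Mt2, with Hamp2 and Hp named only to complete the count, and Hpx was the lower one. The number past the rule in either direction, 3 of 30, was 6 without control mouse 2, without mouse 3 or without scaling, and 5 with limma-voom.

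Hpx, hemopexin, the plasma carrier of free heme, was the lower one. It had 2253 and 2195 CPM in the controls against 917 and 752 CPM in mice 3 and 4, a log2 fold change of -1.41 (SE 0.171, edgeR-adjusted p = 0.0636). Il1rn, the interleukin-1 receptor antagonist, was higher, at 1.43 and 2.76 CPM against 3.63 and 5.04 CPM (log2 fold change 1.05, SE 0.373, edgeR-adjusted p = 0.574). Mt2, a metallothionein, had 2.86 and 17.0 CPM in the controls and 14.7 and 48.3 CPM in the others, so its groups overlapped though it passed the rule. Itih3, of the same protein family as Itih4, had 439 and 320 CPM against 634 and 641 CPM, a log2 fold change of 0.75 (SE 0.178, edgeR-adjusted p = 0.333) that was under the fold of the rule.

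**Figure D4:**
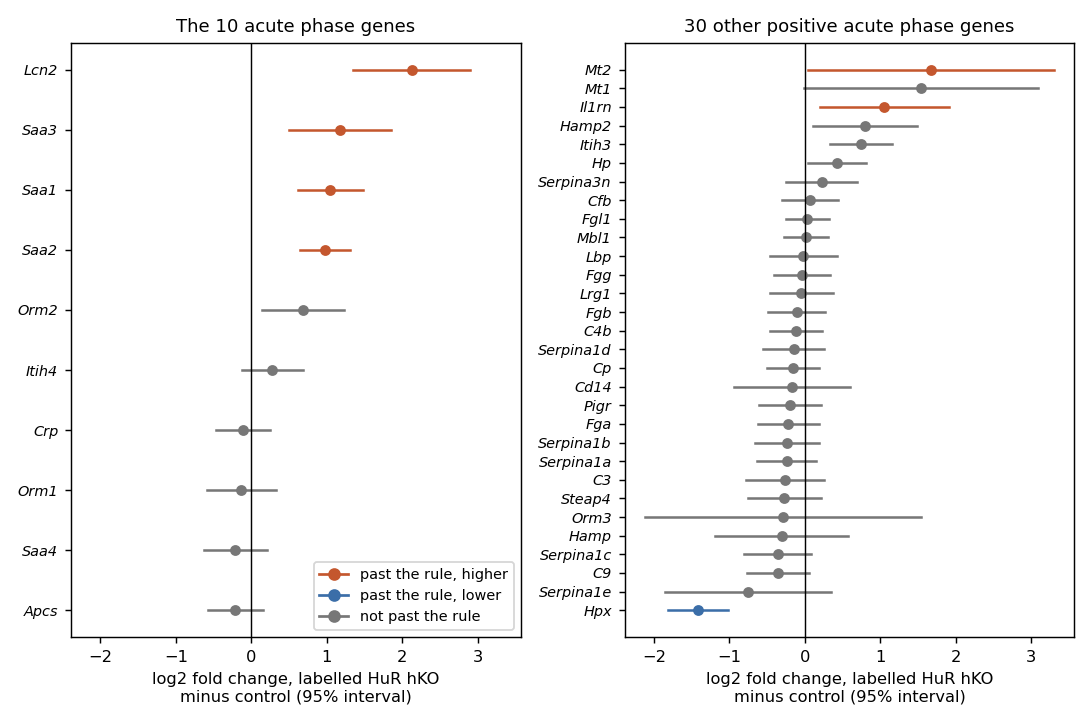
Log2 fold change of the libraries labelled HuR hKO against control with its 95% interval for the 10 acute phase genes (left) and for 30 other positive acute phase genes (right), from edgeR's quasi-likelihood fit. Orange genes passed the rule and were higher (4 on the left, 2 on the right), and Hpx, in blue, passed it and was lower.

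Negative acute phase genes, whose plasma proteins fall in the response, were not lower as a group. None of 14 passed the rule, which 1.21% of all genes passed as higher and 0.915% as lower. With shares this small, 0 past the rule says little, here and in the lists of at most 18 genes that follow. A higher fitted level was seen in 12 of the 14, against 6544 of all 13001 genes, and the median was 0.056. At an unadjusted p under 0.05, 1 was higher, against 4.04% of all genes. That gene was Serpina6, which encodes corticosteroid-binding globulin, at 199 and 257 CPM against 319 and 370 CPM (log2 fold change 0.60, SE 0.167, edgeR-adjusted p = 0.441). The fetuin gene Fetub had -0.35 and the transferrin gene Trf 0.29, both with adjusted p above 0.7.

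Of 10 cytokines able to induce the response, 6 were too low to test. Il6 had 1 count in control mouse 1 and 0 in the other livers, where a count of 0 allows up to 0.159 to 0.224 CPM. The 4 cytokines tested were Il1a, Il1b, Ctf1 and Clcf1, and none passed the rule. Il1a had 2.18 and 2.24 CPM in the controls and 3.14 and 2.34 CPM in mice 3 and 4, a log2 fold change of 0.30 (SE 0.331, edgeR-adjusted p = 0.877). The interleukin-6 family members Ctf1 and Clcf1 had -0.20 and -0.22. Differences in Il6 could not be detected at this depth.

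The receptors of these cytokines were well covered, with 9 of 10 tested and 0 past the rule (1 without control mouse 2 or without mouse 3), at a median log2 fold change of -0.042. The 2 with an unadjusted p under 0.05 were lower, against 3.39% of all genes. Il1rap, the accessory chain of the interleukin-1 receptor, had 158 and 132 CPM in the controls and 97.4 and 94.5 CPM in the others (log2 fold change -0.59, SE 0.139, edgeR-adjusted p = 0.313). Lifr, the receptor of leukemia inhibitory factor, had 237 and 183 CPM against 167 and 103 CPM (-0.64, SE 0.233, edgeR-adjusted p = 0.576). Il1r1, the signalling receptor of interleukin-1, had a log2 fold change of -0.73, with control mouse 1 at 56.4 CPM and the other livers between 19.5 and 28.4 CPM.

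Of 18 transcription factor and kinase genes of the response, none passed the rule, and the median log2 fold change was -0.051. Cebpb, a C/EBP factor, had -0.25, and the kinase gene Jak2 had -0.20.

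Immediate targets and feedback genes of the same pathways had a median of 0.097 over the 12 of 15 that were tested, with 0 past the rule (1 without control mouse 1). The 3 with an unadjusted p under 0.05 were all higher, against 4.04% of all genes. Icam1, an adhesion molecule induced through NF-kB, had 6.70 and 7.91 CPM against 12.8 and 10.5 CPM (log2 fold change 0.67, SE 0.197, edgeR-adjusted p = 0.472). Junb, a subunit of the factor AP-1, had 15.1 and 14.3 CPM against 20.7 and 18.6 CPM (0.42, SE 0.148, edgeR-adjusted p = 0.574). Cxcl1, a chemokine that attracts neutrophils, had 4.14 and 2.61 CPM against 5.58 and 5.15 CPM (0.67, SE 0.289, edgeR-adjusted p = 0.670).

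Glucocorticoids enhance the response, and of 8 glucocorticoid target genes none passed the rule (1 did without control mouse 1 and 1 without control mouse 2), at a median of 0.058. Sgk1, a kinase gene, had 13.8 and 15.9 CPM in the controls and 23.2 and 19.2 CPM in the others (log2 fold change 0.51, SE 0.164, edgeR-adjusted p = 0.530). Tsc22d3 had 0.21, and Zbtb16 had -0.72 with control mouse 1 at 25.1 CPM and the other livers at 5.38 to 9.42 CPM. Among 12 partners of serum amyloid A and lipocalin, such as receptors and lipoprotein genes, 11 were tested, 0 passed the rule, and the median was -0.18. Lcat, the cholesterol-esterifying enzyme of high density lipoprotein, had -0.19, the scavenger receptor gene Cd36 -0.18, and Bdh2, of mammalian siderophore synthesis, -0.22.

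**Figure D5:**
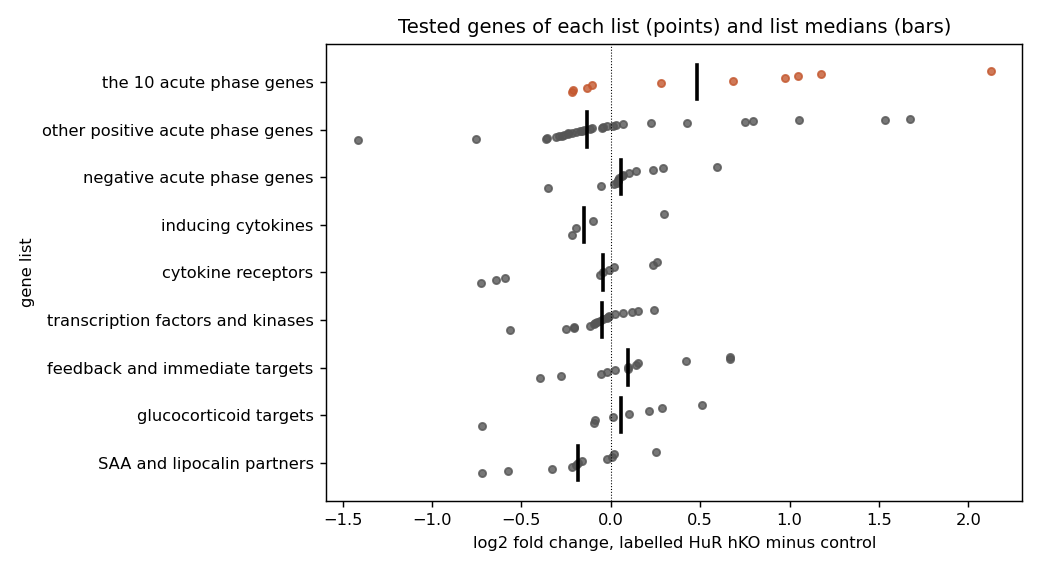
Log2 fold change of the libraries labelled HuR hKO against control for each tested gene of 9 lists (points), with the median of each list as a black bar. The 10 acute phase genes (orange) have a median of 0.48 and reach 2.13, while the medians of the other lists lie between -0.18 and 0.097.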

How the data were processed

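Liver RNA of 4 male mice (2 control, 2 labelled HuR hKO) was sequenced. The authors deposited whole-number counts per Ensembl gene, without normalization, for each mouse. The submitters' processing notes name RSEM and GRCm38, so the counts may be rounded estimates. The aligner, the use of strand and the treatment of reads matching several genes are not given in the sources used here. All columns were matched to a mouse (0 left over). Of 46603 identifiers, 46005 were given a symbol.

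Counts were filtered with edgeR's default (minimum 10 counts, total 15), scaled by TMM factors and compared with the edgeR 4.0.16 quasi-likelihood test (R 4.3.3), with p-values adjusted over 13001 genes by the Benjamini-Hochberg method. Alternatives were DESeq2 1.42.0 size factors and Wald test, upper quartile factors, no scaling, limma-voom (3.58.1), no filter, at least 10 counts in every sample, and leaving out each mouse. The labels name no batch and give no ages of the mice. The fitted p-values rest on the spread between these samples together with variation borrowed from genes of similar abundance. Counts of every pair of libraries differed by more than sampling noise (chi-square per degree of freedom 22.7 to 36.3). The fits were tested on simulated data.

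The members and the lists were chosen with earlier results of these data known. Genes named are the 10 members and Elavl1, the genes of each list past the rule and the 3 with the smallest unadjusted p, and the 5 tested genes nearest to Saa1 and to Lcn2 (Euclidean distance of centred log2 CPM, prior count 2), and exceptions are marked. Some genes that this rule covers are left out. Marker lists are given by summed CPM. Coordinates and transcripts are of GENCODE M21 (GRCm38), promoters of RefSeq, aligned with biopython 1.88. Word sharing was counted on the sense strand of 1 main transcript per gene against all transcripts.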

Additional observations from a re-analysis of the deposited data

How the results depend on the processing

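Saa1, Saa2, Saa3 and Lcn2 kept their direction in all 11 alternative settings, and Saa2 and Lcn2 passed the study's rule in each. Between 3 and 5 of the 10 genes passed it. No scaling for library size shifted the median of all genes to 0.31 and changed the most. It turned Saa4 to 0.13, Orm1 to 0.21, Apcs to 0.087, Crp to 0.20 and the sum of Orm1 and Orm2 to 0.22, and it put Orm2 (1.02) past the rule. List medians became 0.19 (other positive), 0.38 (negative), 0.29 (receptors), 0.25 (factors and kinases), 0.41 (feedback), 0.37 (glucocorticoid) and 0.13 (partners), and the rule then called 510 genes higher and 61 lower. Without a filter it called 262 and 264, and the partners' median was -0.20. At an adjusted p under 0.05, no scaling gave 4 of the 10 genes and 130 higher and 25 lower genes in all. No filter gave 4 of the 10 and 80 and 81 in all, the DESeq2 Wald test gave 3 of the 10 and 50 and 35, and limma-voom and a minimum of 10 counts each gave 1 higher gene. Of the 30 other positive genes 2 to 6 passed the rule over all settings, against 3. Lists with 0 past the rule gave 1 (negative) and 2 (feedback) without scaling and 1 (receptors) without a filter. The cause of these differences was not tested.

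Leaving out each mouse in turn gave log2 fold changes of 0.79 to 1.35 (Saa1), 0.81 to 1.47 (Saa3), 0.83 to 1.23 (Saa1 and Saa2 summed), 0.43 to 0.88 (Orm2), -0.36 to 0.13 (Orm1), -0.34 to 0.14 (Orm1 and Orm2 summed) and -0.26 to 0.056 (Crp). Reversals were Crp without control mouse 1 (0.056), Orm1 and the sum without control mouse 2 (0.13 and 0.14) and without mouse 3 (0.013 and 0.030). Of the 10 genes, 0 to 3 had an adjusted p under 0.05, with 3 (Saa1, Saa2 and Lcn2) without control mouse 1. Over all genes the rule called 119 to 274 higher and 139 to 232 lower, and an adjusted p under 0.05 called 0 to 30 higher and 0 to 43 lower. Medians were -0.13 to -0.034 (other positive), 0.043 to 0.11 (negative), -0.57 to 0.44 (cytokines), -0.16 to 0.058 (receptors), 0.044 to 0.22 (feedback), -0.087 to 0.30 (glucocorticoid) and -0.25 to -0.17 (partners). The single mouse left in a group was assumed to vary like the others. No paired analysis was possible because mouse numbers 1 to 4 do not repeat between the groups. Depth limits genes with few counts, such as Il6.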
